A study of Homo sapiens with 6 samples.

Results

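The genes described here are 45 enzymes and core subunits that write or erase chromatin marks: DNA methyltransferases, TET dioxygenases, Polycomb proteins, lysine demethylases, histone deacetylases, sirtuins, lysine methyltransferases and lysine acetyltransferases. They were picked out by gene symbol, by a rule that uses no expression value but was written with earlier results of these data known, from the 20356 gene IDs of the series' expression table, and all 45 were found. The measurements are RNA sequencing of H1975, a human lung adenocarcinoma cell line, and of H1975 OR, its osimertinib-resistant derivative, with 3 libraries of each. Osimertinib inhibits mutant EGFR. Cells of both groups grew in the same serum-containing medium. The parental cells were kept under normal conditions and the resistant cells in 1 µM osimertinib, so that resistance and the presence of the drug cannot be told apart. The labels describe 1 resistant line, and any change tied to resistance cannot be told apart from other changes of that derivative. The replicates are called biological by the submitters, with nothing further on how they were separated, so that the p-values measure the spread between these libraries.

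DNA methyltransferases place methyl groups on cytosine, and TET enzymes oxidise them. Histone acetyltransferases and deacetylases add and remove acetyl groups on lysines, which is known to accompany open and closed chromatin, and methyltransferases and demethylases set methyl marks whose meaning depends on the lysine. Most of these enzymes act within multisubunit complexes and many draw on metabolites such as S-adenosylmethionine, acetyl-CoA, 2-oxoglutarate and NAD, which is why partner subunits and cofactor enzymes are described beside them.

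Levels are given in FPKM, a fragment number corrected for gene length and library total, so that different genes can be compared. Changes are differences of mean log2(FPKM + 1), resistant minus parental, and they understate the change of weakly expressed genes. Ratios given beside them are of mean FPKM without the added 1. The test was limma's moderated test with Benjamini-Hochberg adjustment across the table, and a gene is called where the adjusted p is under 0.05. Every adjusted p below is limma's unless an exact permutation test is named. Of the 45 members, 44 averaged 1 FPKM or more in a group and were tested, and TET1 was not.

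Markers of the line's lung adenocarcinoma origin changed along with the comparison. All 8 tested genes of a list of 10 epithelial and lung adenocarcinoma markers were lower in the resistant cells, with summed FPKM of 3011 to 3522 in the parental and 931 to 1008 in the resistant libraries. EPCAM, an epithelial adhesion protein, fell from a mean of 211 to 1.02 FPKM and NKX2-1, a lung lineage factor, was listed at 0 in every resistant library after 27.9, 28.7 and 23.6 FPKM in the parental ones, while keratins KRT8 (508 and 384 FPKM) and KRT18 (431 and 274 FPKM) were lower but still abundant. Of 8 fibroblast markers 2 were tested and both rose, COL1A1 from 2.45 to 15.8 FPKM and PDGFRB from 0.0444 to 3.94 FPKM, with summed FPKM of 2.41 to 2.97 and 18.1 to 22.0, while DCN was listed at 0 in all 6 libraries. Of 8 leukocyte markers 2 were tested and both rose, CD14 and CD68, with summed FPKM of 24.1 to 27.6 and 70.3 to 80.2, while CD3E was listed at 0 everywhere and PTPRC averaged 0.00247 and 0.0154 FPKM. Of 14 proliferation genes 13 fell and none rose, with summed FPKM of 1066 to 1205 in the parental and 608 to 705 in the resistant libraries. For comparison, 39.9% of all tested genes were called higher and 38.1% lower. The part of these shifts in the changes of the chromatin enzymes was not tested. In bulk RNA, fewer cells of a type and less RNA per cell cannot be told apart.

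Of the 44 tested members, 20 rose, 9 fell and 15 were not called. Across all 12107 tested genes, 39.9% were called higher, 38.1% lower and 78% in either direction, so a call by itself is common in this comparison. Counts of called genes in the classes and partner lists below are to be read beside these shares. Only HDAC1 passed a change of 1 on the log2 scale as well, in the lower direction, where the table as a whole had 9.39% of genes lower and 9.95% higher by that much (19.3% in either direction). The members' median change was 0.13, against 0.01 over all tested genes, and their median absolute change was 0.305, against 0.449 over all tested genes. The parental and resistant values did not overlap for 30 of the 45 members, or 29 of the 44 tested, against 79.8% of all tested genes. The members were thus spread over both directions and moved by modest amounts on this scale, from -1.01 for HDAC1 to 0.955 for SIRT2. The added 1 matters here. Ratios of mean FPKM were 2.46 for KAT2B, 2.44 for TET2 and 2.08 for SIRT2, beside 0.492 for HDAC1. With 0.1 added in place of 1, 3 members were called higher by at least 1 on the log2 scale.

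**Figure D1:**
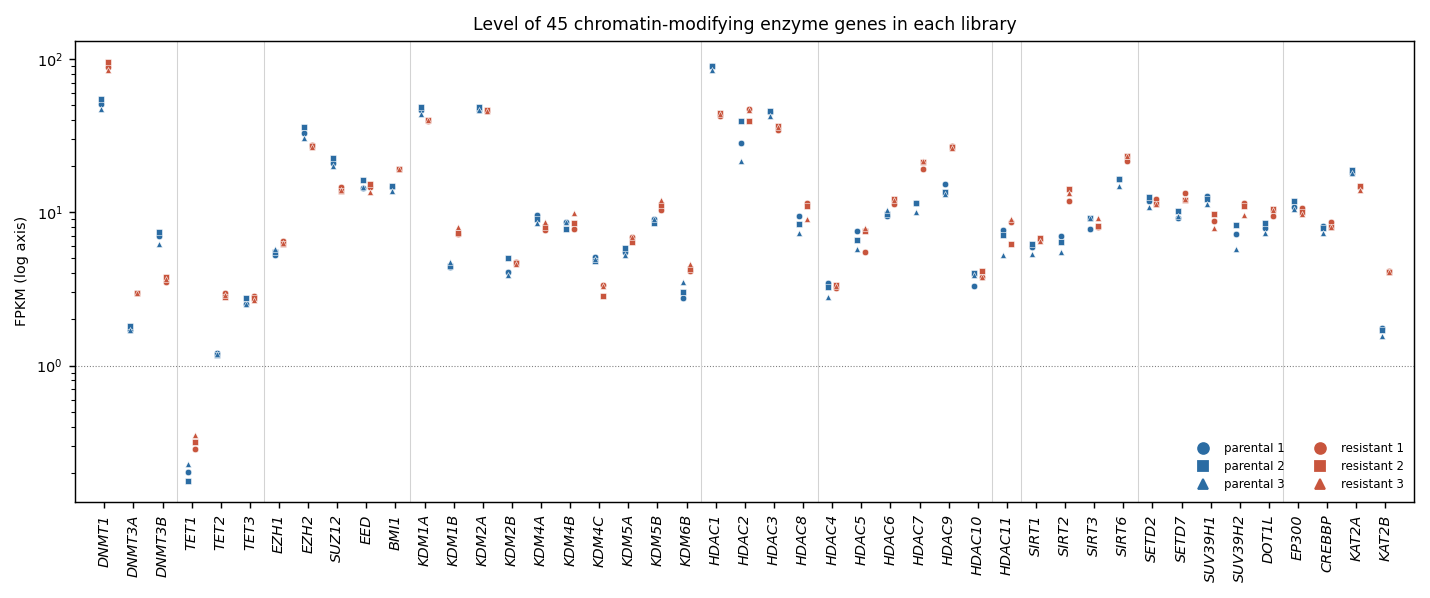
FPKM (log axis) of the 45 genes in each of the 6 libraries, parental in blue and resistant in red, 1 marker shape per replicate number, with thin lines between enzyme classes and a dotted line at 1 FPKM. HDAC1 and DNMT1 are the most abundant, TET1 lies under 1 FPKM in all 6 libraries, and the separated clouds of HDAC1, KAT2B and TET2 contrast with the overlapping ones of EED or SETD2.

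**Figure D2:**
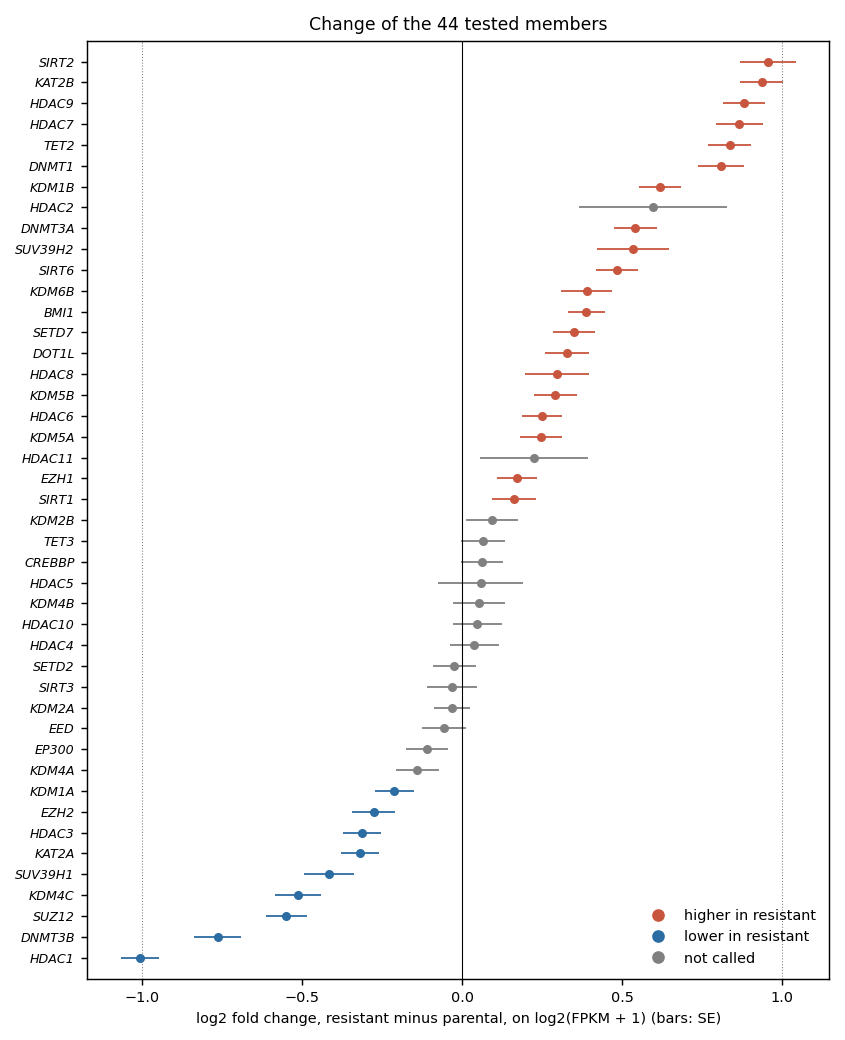
Change of the 44 tested genes, as the resistant less the parental mean of log2(FPKM + 1), with bars of 1 standard error from limma, and dotted lines at -1 and 1. Red points are called higher (20 genes), blue lower (9) and grey not called (15), and HDAC2 has the widest bar.

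Sequences are shown for pairs among those whose ratio shifted most (HDAC1 and HDAC2, KAT2A and KAT2B). They are also shown for the methyltransferases DNMT1, which rose, and DNMT3B, which fell. The ratio of DNMT3A to DNMT3B shifted slightly more than that of KAT2A to KAT2B, but DNMT3A is not shown. HDAC2 is shown beside HDAC1 although its own change was not called. To show the start regions of these genes, the 250 bases upstream of the RefSeq transcription start (GRCh38.p14) are printed 5′ to 3′ on the strand of the gene. Capitals mark the GC box (GGGCGG, or CCGCCC on the other strand) and the CCAAT box (CCAAT, or ATTGG), the searched motifs found in these windows. Each of the 6 genes has a single start in the RefSeq table used. Whether it is the outermost start of the gene, or the one used in these cells, was not checked. A window may therefore lie inside a gene.
HDAC1, chr1:32291833-32292082, plus strand: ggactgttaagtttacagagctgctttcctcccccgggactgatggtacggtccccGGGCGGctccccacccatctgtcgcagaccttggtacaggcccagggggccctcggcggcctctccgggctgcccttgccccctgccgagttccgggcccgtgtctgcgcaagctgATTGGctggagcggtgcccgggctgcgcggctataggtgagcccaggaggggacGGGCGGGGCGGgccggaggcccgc
HDAC2, chr6:113971149-113971398, minus strand: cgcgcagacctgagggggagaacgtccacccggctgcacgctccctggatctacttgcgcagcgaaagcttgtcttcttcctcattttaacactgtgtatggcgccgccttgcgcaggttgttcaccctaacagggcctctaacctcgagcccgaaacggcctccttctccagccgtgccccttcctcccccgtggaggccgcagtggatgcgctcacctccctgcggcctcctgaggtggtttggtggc
KAT2A, chr17:42121368-42121617, minus strand: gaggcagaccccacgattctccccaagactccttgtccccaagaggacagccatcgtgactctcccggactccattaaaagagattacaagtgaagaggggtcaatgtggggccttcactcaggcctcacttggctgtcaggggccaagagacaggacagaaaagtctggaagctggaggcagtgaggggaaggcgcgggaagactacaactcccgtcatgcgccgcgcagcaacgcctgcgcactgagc
KAT2B, chr3:20040196-20040445, plus strand: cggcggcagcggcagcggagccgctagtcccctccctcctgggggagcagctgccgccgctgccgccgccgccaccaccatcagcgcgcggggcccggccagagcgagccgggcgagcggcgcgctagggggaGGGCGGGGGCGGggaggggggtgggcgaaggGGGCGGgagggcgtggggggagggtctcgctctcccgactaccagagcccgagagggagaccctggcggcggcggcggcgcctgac
DNMT1, chr19:10194954-10195203, minus strand: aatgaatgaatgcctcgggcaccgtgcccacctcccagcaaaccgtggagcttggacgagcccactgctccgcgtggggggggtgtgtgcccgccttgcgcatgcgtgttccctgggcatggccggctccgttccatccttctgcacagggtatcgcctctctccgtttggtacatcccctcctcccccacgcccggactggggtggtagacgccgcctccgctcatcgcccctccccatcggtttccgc
DNMT3B, chr20:32779602-32779851, plus strand: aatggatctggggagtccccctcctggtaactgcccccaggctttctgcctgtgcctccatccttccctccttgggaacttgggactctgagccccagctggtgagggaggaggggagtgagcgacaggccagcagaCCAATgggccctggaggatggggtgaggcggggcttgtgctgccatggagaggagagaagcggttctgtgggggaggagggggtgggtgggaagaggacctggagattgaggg

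The windows of HDAC1 and KAT2B each held 3 GC boxes, and the other 4 held none. A pair of the boxes overlapped in HDAC1, and a pair lay directly side by side in KAT2B. HDAC1 and DNMT3B each held 1 CCAAT box. Over all 35116 windows of that length, 42.6% held a GC box and 32% a CCAAT box, so either is common. The KAT2B window was the richest in CpG dinucleotides, the sites of DNA methylation, with 33 of them and a GC content of 80.8%, while that of KAT2A had 11 and 58.8%. HDAC1 and DNMT1 had 21 each, HDAC2 18, and DNMT3B 3. The low number of DNMT3B holds for the printed window alone and does not describe other starts of that gene. The median was 22 over the 72 windows of the 43 members with an entry and 11 over all windows. These are descriptions of sequence, and the expression values do not say which letters are used.

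The DNA methyltransferases all changed, 2 up and 1 down. DNMT1 (19:10244021-10341962 in GRCh37, the build of all gene coordinates below) copies methylation onto new DNA strands after replication. It measured 50.7, 55.0 and 47.6 FPKM in the parental libraries and 88.9, 96.3 and 85.2 FPKM in the resistant ones. Every resistant library was above every parental one, and the mean rose from 51.1 ± 3.70 to 90.2 ± 5.66 FPKM (SD, n = 3 each), a log2 change of 0.81 ± 0.07 (SE, adjusted p = 4e-07, limma). DNMT1 went from the second most abundant member to the first. It did so while 13 of 14 proliferation genes fell, among them PCNA, the replication clamp to which DNMT1 binds (193 and 125 FPKM). Among all tested genes, 38.1% were called lower.

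The de novo methyltransferases, which place methylation on unmethylated sites, moved apart. DNMT3A (2:25455845-25565459) measured 1.70, 1.81 and 1.71 FPKM in the parental and 2.98, 2.99 and 2.99 FPKM in the resistant libraries. Its groups were well separated and it rose by 0.54 ± 0.07 on the log2 scale (adjusted p = 9.2e-06, limma), a ratio of 1.72. DNMT3B (20:31350191-31397162) measured 7.03, 7.44 and 6.25 FPKM in the parental and 3.52, 3.77 and 3.65 FPKM in the resistant libraries. It fell in all 3 resistant libraries, to 0.528 of the parental mean (log2 change -0.76 ± 0.07, adjusted p = 7.8e-07, limma). DNMT3B stayed the higher of the pair, though narrowly: the ratio of DNMT3A to DNMT3B went from 0.253 ± 0.0174 to 0.819 ± 0.0258. The summed FPKM of the 3 genes was 55.5 to 64.2 in the parental and 91.8 to 103 in the resistant libraries, and most of it was DNMT1.

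The TET dioxygenases, which oxidise 5-methylcytosine with 2-oxoglutarate and iron, were all weakly expressed. TET2 (4:106067032-106200973) measured 1.20, 1.16 and 1.20 FPKM in the parental and 2.99, 2.81 and 2.91 FPKM in the resistant libraries. The groups were far apart compared with their spread, with a ratio of 2.44 and a log2 change of 0.83 ± 0.07 (adjusted p = 1.6e-07, limma). TET3 (2:74229840-74335303) overlapped between groups, from 2.52 to 2.74 FPKM in the parental and 2.68 to 2.85 FPKM in the resistant libraries, and was not called (0.07, adjusted p = 0.395, limma). TET2 thus went from less abundant than TET3 to about equal. TET1 was under the 1 FPKM limit with 0.202, 0.178 and 0.227 FPKM in the parental and 0.285, 0.317 and 0.354 FPKM in the resistant libraries. Its groups did not overlap, and in a fit without the limit its log2 change was 0.13 ± 0.03 (adjusted p = 0.0057, limma).

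Of 9 tested partners and readers of DNA methylation, 5 rose and 3 fell. UHRF2, a ring-finger relative of the DNMT1 partner UHRF1, fell from 18.4 to 9.72 FPKM (-0.85, adjusted p = 8.2e-08, limma). MBD3, a subunit of the NuRD co-repressor, rose from 45.9 to 63.5 FPKM and ZBTB4, a zinc-finger reader of methylated DNA, from 9.62 to 16.6 FPKM. UHRF1 itself is listed in the files of the single libraries but not in the table that was tested. It measured 54.7, 57.6 and 48.0 FPKM in the parental and 44.6, 48.1 and 37.8 FPKM in the resistant libraries, ranges that overlap.

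Polycomb proteins keep genes silent: complex PRC2 methylates lysine 27 of histone H3 and complex PRC1 ubiquitinates histone H2A. Of the 5 Polycomb members, 2 rose, 2 fell and EED was not called. SUZ12 (17:30264037-30328064), a scaffold subunit of PRC2, measured 20.9, 22.5 and 20.1 FPKM in the parental and 14.73, 13.75 and 13.96 FPKM in the resistant libraries, a log2 change of -0.55 ± 0.06 (adjusted p = 5e-06, limma). EZH2 (7:148504475-148581413), the main catalytic subunit, measured 32.8, 36.1 and 30.7 FPKM and then 27.5, 27.3 and 26.6 FPKM. The fall of EZH2 was smaller than that of SUZ12 (-0.28 ± 0.07, adjusted p = 0.0023, limma), yet the groups did not overlap. EED (11:85955586-85989855), the subunit that reads the mark, ranged from 14.4 to 16.4 FPKM in the parental and from 13.6 to 15.4 FPKM in the resistant libraries (-0.06, adjusted p = 0.469, limma). The difference between the changes of SUZ12 and EED was not tested.

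EZH1, the second catalytic subunit, measured 5.30, 5.50 and 5.76 FPKM in the parental and 6.519, 6.196 and 6.309 FPKM in the resistant libraries. Its rise of 0.17 ± 0.06 was called at an adjusted p of 0.0255 (limma), but not without parental library 1 (0.11), parental library 2 (0.054) or resistant library 1 (0.068), nor after quantile normalization (0.137). BMI1 (10:22610140-22620413), a PRC1 subunit known for its part in self-renewal, was steadier. It measured 14.6, 14.9 and 13.9 FPKM in the parental and 19.3, 19.2 and 19.2 FPKM in the resistant libraries, a log2 rise of 0.39 ± 0.06 (adjusted p = 4.9e-05, limma).

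The other Polycomb subunits also went both ways. Of 7 tested PRC2 accessory subunits 3 rose and 1 fell. JARID2 (4.76 and 8.03 FPKM) and PHF1 (6.88 and 12.1 FPKM) rose, and PHF19 fell (55.1 and 38.3 FPKM, log2 change -0.51, adjusted p = 0.00027, limma). These proteins guide PRC2 to its sites. Of 20 tested PRC1 subunits 8 rose and 8 fell. RING1, an E3 ligase subunit, rose from 13.3 to 28.9 FPKM (adjusted p = 1e-08, limma). Among the interchangeable PCGF subunits, to which BMI1 belongs, PCGF5 rose from 6.29 to 16.4 FPKM and PCGF1 fell from 19.4 to 10.4 FPKM.

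The lysine methyltransferases comprised 5 members, of which 3 rose, 1 fell and SETD2 was not called. SUV39H1 and SUV39H2 are paralogous enzymes that trimethylate lysine 9 of histone H3 in heterochromatin, and they changed in opposite directions. SUV39H1 (X:48553945-48567403) measured 12.8, 12.2 and 11.3 FPKM in the parental and 8.80, 9.81 and 7.94 FPKM in the resistant libraries (-0.42 ± 0.08, adjusted p = 0.00032, limma). SUV39H2 (10:14920819-14946314) measured 7.26, 8.31 and 5.80 FPKM and then 11.6, 10.9 and 9.55 FPKM (0.53 ± 0.11, adjusted p = 0.0016, limma). Neither gene overlapped between groups, and the order of the pair turned: SUV39H1 was the higher in all 3 parental libraries and SUV39H2 in all 3 resistant ones.

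SETD7, a mono-methyltransferase of histone H3 and other proteins, rose from 9.65 to 12.6 FPKM (0.35, adjusted p = 0.00035, limma). DOT1L, which methylates lysine 79 of histone H3, rose from 7.90 to 10.2 FPKM (0.33, adjusted p = 0.0009, limma). SETD2, which trimethylates lysine 36 in transcribed genes, ranged from 10.9 to 12.7 FPKM in the parental and from 11.3 to 12.1 FPKM in the resistant libraries and was not called (adjusted p = 0.745, limma). DOT1L overlaps the end of PLEKHJ1 (19:2230002-2232577), which fell from 53.1 to 15.2 FPKM. At its other end DOT1L overlaps AP3D1 over a short stretch (19:2164148-2164464), at 45.9 FPKM in the parental and 53.6 FPKM in the resistant cells. The sources used here do not say whether the counting used strand.

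Around these enzymes, the heterochromatin list had the most one-sided count. Of 11 tested genes of H3K9 methylation and heterochromatin, 7 fell and 1 rose, beside 38.1% of all tested genes called lower and 39.9% higher. Their summed FPKM was 792 to 861 in the parental and 393 to 402 in the resistant libraries. Much of that sum was TRIM28, the KAP1 co-repressor of zinc-finger proteins, which fell from 423 ± 19.3 to 157 ± 10.1 FPKM (-1.43, adjusted p = 1.3e-09, limma). CBX3, the heterochromatin protein HP1 gamma, fell from 262 ± 12.9 to 102 ± 2.49 FPKM (-1.35, adjusted p = 8.9e-10, limma). TRIM28 and CBX3 together made up most of the fall of the sum, so the sum does not describe the list as a whole. MPHOSPH8, a subunit of the HUSH silencing complex, fell from 12.7 to 9.08 FPKM.

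The complexes that methylate lysine 4 had 4 of 16 tested genes higher and 7 lower, beside 39.9% and 38.1% of all tested genes. Their shared subunits WDR5 (40.2 and 23.7 FPKM) and DPY30 (58.2 and 32.9 FPKM) and the partner PAXIP1 (17.7 and 9.90 FPKM) fell. A list of enzymes of lysine 36, of lysine 20 on histone H4 and of other lysine methyltransferases had 3 of 16 higher and 6 lower, with falls of SMYD2 (23.7 and 9.05 FPKM), SETMAR (10.8 and 4.36 FPKM) and KMT5C (9.77 and 5.34 FPKM). Of 9 arginine methyltransferase genes 3 rose and 4 fell. The coactivator CARM1 rose from 33.6 ± 0.788 to 74.1 ± 3.28 FPKM (1.12, adjusted p = 3.4e-09, limma), while PRMT2 (28.2 and 20.5 FPKM) and WDR77 (20.4 and 12.7 FPKM), a partner of PRMT5, fell. Partners of DOT1L, KDM1A and SETD2 had 7 of 14 higher and 6 lower. PHF21A, a reader of unmethylated lysine 4 in the KDM1A co-repressor, rose from 2.83 to 14.3 FPKM (1.996, adjusted p = 2.4e-10, limma), and MLLT1, which works with DOT1L in elongation, rose from 14.03 to 31.05 FPKM. MORF4L1, a reader of methylated lysine 36, rose from 75.9 to 110.0 FPKM.

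Among the 10 lysine demethylases, 4 rose, 2 fell and 4 were not called, and their summed FPKM stayed at 139 to 146 in the parental and 138 to 144 in the resistant libraries. The flavin-dependent enzymes KDM1A and KDM1B, which remove methyl groups from lysine 4, moved apart. KDM1A (1:23345941-23410182) measured 46.93, 48.97 and 43.95 FPKM in the parental and 39.7, 40.2 and 40.2 FPKM in the resistant libraries (-0.21 ± 0.06, adjusted p = 0.0066, limma). KDM1B (6:18155560-18224084) measured 4.42, 4.50 and 4.75 FPKM and then 7.198, 7.383 and 7.998 FPKM (0.62 ± 0.07, adjusted p = 2.4e-06, limma). KDM1A remained the more abundant by a ratio of 10.3 in the parental and 5.33 in the resistant cells.

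The other demethylases use 2-oxoglutarate. KDM4C (9:6720863-7175648), which acts on lysine 9, measured 5.09, 4.81 and 4.94 FPKM in the parental and 3.36, 2.85 and 3.31 FPKM in the resistant libraries. All resistant values lay under the parental ones, and it fell by 0.51 on the log2 scale (adjusted p = 2.9e-05, limma). Its relatives were not called: KDM4A ranged from 8.52 to 9.59 FPKM in the parental and from 7.68 to 8.64 FPKM in the resistant libraries (-0.14, adjusted p = 0.0772, limma), and KDM4B from 7.80 to 8.62 and from 7.80 to 9.86 FPKM. KDM4A passed the threshold without parental library 3 (adjusted p = 0.044) or resistant library 3 (0.046), with median-of-ratios scaling (0.032), with quantile normalization (0.014) and on a scale of sequencing coverage (0.0197), all by limma.

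KDM5A and KDM5B, which demethylate lysine 4, both rose slightly, from 5.53 to 6.75 FPKM (0.25, adjusted p = 0.0044, limma) and from 8.91 to 11.1 FPKM (0.29, adjusted p = 0.00165, limma). KDM6B (17:7743222-7758114), a demethylase of the Polycomb mark on lysine 27, measured 2.77, 3.02 and 3.49 FPKM in the parental and 4.15, 4.27 and 4.62 FPKM in the resistant libraries (0.39 ± 0.08, adjusted p = 0.00067, limma). KDM2A, the third most abundant member in the parental cells, ranged from 46.5 to 48.5 FPKM and from 45.6 to 46.8 FPKM and was not called (adjusted p = 0.597, limma). KDM2B was not called either (adjusted p = 0.308, limma), except without parental library 2 (0.039). Of 12 other demethylase genes 3 rose and 4 fell, among them KDM3A (15.6 and 12.3 FPKM), PHF2 (7.16 and 4.98 FPKM) and JMJD6 (15.4 and 9.30 FPKM), all lower.

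The largest change of a member on the log2(FPKM + 1) scale was that of a deacetylase. HDAC1 (1:32757687-32799236), a class I enzyme at the core of the NuRD, Sin3 and CoREST co-repressors, measured 90.75, 90.75 and 84.82 FPKM in the parental and 42.56, 44.5 and 43.97 FPKM in the resistant libraries. Each resistant library was about level with the others and far under each parental one, and the mean fell from 88.8 ± 3.42 to 43.7 ± 1.00 FPKM, a ratio of 0.492 (log2 change -1.01 ± 0.06, adjusted p = 8.4e-09, limma). HDAC1 was the most abundant member in the parental cells and the fourth in the resistant cells.

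HDAC2 (6:114254192-114332472), its paralogue in the same complexes, was the least reproducible member. It measured 28.2, 39.4 and 21.7 FPKM in the parental and 47.2, 39.4 and 46.4 FPKM in the resistant libraries, so that the highest parental and lowest resistant libraries were nearly equal. The ratio of means was 1.49, and the log2 difference of 0.60 ± 0.23 was not called (adjusted p = 0.0617, limma). Without parental library 2 the adjusted p was 0.00018, and without parental library 3 it was 0.0405; with median-of-ratios scaling, quantile normalization or plain moderation without trend it was 0.044, 0.047 and 0.0105. HDAC2 was thus called in some settings and not in others, with a positive difference in each.

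HDAC3 (5:141000443-141016437), a catalytic subunit of nuclear co-repressor complexes, fell from 44.5 to 35.7 FPKM in groups that did not overlap (-0.31 ± 0.06, adjusted p = 0.00037, limma). HDAC8 (X:71549366-71792953) measured 9.44, 8.39 and 7.31 FPKM in the parental and 11.49, 11.01 and 9.072 FPKM in the resistant libraries. Its ranges overlapped, and the call (0.30 ± 0.10, adjusted p = 0.0175, limma) was lost without parental library 3 (0.071), resistant library 1 (0.0705) or resistant library 2 (0.065), with quantile normalization (0.052) and with no limit on low values (0.067). Class I as a whole summed to 157 to 184 FPKM in the parental and 132 to 136 FPKM in the resistant libraries.

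Of the 6 class II deacetylases, 3 were called higher and none lower, beside 39.9% of all tested genes called higher. HDAC7 (12:48176505-48226915), a class IIa enzyme that binds MEF2 factors, measured 11.5, 11.5 and 10.0 FPKM in the parental and 19.3, 21.4 and 21.8 FPKM in the resistant libraries. HDAC9 (7:18126572-19042039), of the same class, measured 15.3, 13.7 and 13.2 FPKM and then 27.1, 26.7 and 26.4 FPKM. Both rose 1.90-fold with groups that did not overlap, by 0.87 ± 0.07 (adjusted p = 2.3e-07) and 0.88 ± 0.07 (adjusted p = 7.6e-08) in limma's test. HDAC6, the cytoplasmic tubulin deacetylase, rose from 9.82 to 11.9 FPKM (0.25, adjusted p = 0.0027, limma). HDAC4 (adjusted p = 0.672), HDAC5 (0.703) and HDAC10 (0.585) were not called by limma, overlapped between groups and changed sign in some alternative settings. The class summed to 46.0 to 50.7 FPKM in the parental and 70.2 to 75.3 FPKM in the resistant libraries. HDAC11, the class IV enzyme, measured 7.69, 7.07 and 5.26 FPKM and then 8.68, 6.21 and 9.04 FPKM and was not called (adjusted p = 0.259, limma), except without resistant library 2 (0.027) and on the coverage scale (0.013).

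The sirtuins are NAD-dependent deacylases, and 3 of the 4 members rose while none fell, beside 39.9% of all tested genes called higher. The sirtuins outside the members, named here after their values were seen, went both ways: SIRT7 fell from 15.4 ± 0.743 to 7.36 ± 1.12 FPKM (-0.98, adjusted p = 6.1e-07, limma), while SIRT5 (4.99 and 7.42 FPKM) and the weakly expressed SIRT4 (0.303 and 1.22 FPKM) rose. SIRT2 (19:39369197-39390502), mainly a cytoplasmic enzyme that also acts on lysine 16 of histone H4, measured 6.98, 6.44 and 5.50 FPKM in the parental and 11.8, 14.1 and 13.5 FPKM in the resistant libraries. This was the largest rise among the members on the log2(FPKM + 1) scale, 0.955 ± 0.0866 (adjusted p = 6.1e-07, limma), a ratio of 2.08. SIRT6 (19:4174106-4182601), a nuclear deacetylase of histone H3, measured 16.6, 16.5 and 15.0 FPKM and then 21.6, 23.4 and 23.4 FPKM (0.48 ± 0.06, adjusted p = 1.9e-05, limma). SIRT1 measured 5.98, 6.26 and 5.32 FPKM and then 6.64, 6.78 and 6.53 FPKM, and its call (0.16, adjusted p = 0.0493, limma) was lost in 9 of 15 alternative settings, with an adjusted p of up to 0.181 without parental library 3. SIRT3, the mitochondrial member, was not called (adjusted p = 0.717, limma). Its end overlaps that of PSMD13 over a short stretch (11:236546-236931), an abundant proteasome gene that fell from 92.6 to 60.9 FPKM.

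Several enzymes that handle the cofactors moved by large amounts. Of 20 tested genes that supply or use NAD, S-adenosylmethionine, acetyl-CoA or 2-oxoglutarate, 11 rose and 4 fell. Among all tested genes, 39.9% were called higher and 38.1% lower. Log2 rises of 1 or more were called for 5 of the 20 genes, and a fall of that size for 1. The matching shares of all tested genes were 9.95% and 9.39%. This list was chosen with earlier results of these data known, and its difference from those shares was not tested. QPRT, which makes nicotinic acid mononucleotide for NAD synthesis, was at 0.420 FPKM in the parental and 56.9 FPKM in the resistant cells (5.35, adjusted p = 3.7e-14, limma). NNMT, which methylates nicotinamide with S-adenosylmethionine and was chosen after its values were seen, measured 3.79, 3.81 and 6.17 FPKM and then 98.2, 105.6 and 106.5 FPKM (4.25 ± 0.16, adjusted p = 2.6e-07, limma). The isocitrate dehydrogenases, which make 2-oxoglutarate, exchanged order. Cytoplasmic IDH1 fell from 74.7 to 27.2 FPKM (-1.42, adjusted p = 4.9e-09, limma), and mitochondrial IDH2 rose from 17.2 to 49.1 FPKM (1.46, adjusted p = 9.4e-10, limma).

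Of 22 tested genes of a list that joins deacetylase co-repressor subunits with the other sirtuins, 10 rose and 9 fell. MTA1, a NuRD subunit that binds HDAC1 and HDAC2, fell from 31.1 ± 0.942 to 9.18 ± 0.541 FPKM (-1.66, adjusted p = 1.4e-10, limma). TBL1XR1 (45.6 and 18.2 FPKM), a partner of HDAC3, fell as well.

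Among the acetyltransferases, 1 rose, 1 fell and 2 were not called. KAT2A (17:40265126-40273376) and KAT2B (3:20081515-20195896), known as GCN5 and PCAF, are alternative catalytic subunits of the SAGA and ATAC coactivators. KAT2A measured 18.0, 19.0 and 18.0 FPKM in the parental and 14.62, 14.9 and 13.98 FPKM in the resistant libraries (-0.32 ± 0.06, adjusted p = 0.00029, limma). KAT2B measured 1.75, 1.69 and 1.56 FPKM and then 4.14, 4.08 and 4.07 FPKM (0.935 ± 0.07, adjusted p = 6.1e-08, limma). The resistant values of KAT2B were 2.46 times the parental ones with hardly any spread, the largest ratio among the tested members, yet KAT2A stayed the more abundant. The coactivators EP300 and CREBBP were not called (adjusted p = 0.145 and 0.405, limma), at 11.1 and 10.2 FPKM for EP300 and 7.84 and 8.22 FPKM for CREBBP. The 4 genes summed to 37.4 to 40.5 FPKM in the parental and 35.9 to 38.1 FPKM in the resistant libraries.

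Of 27 tested genes of other acetyltransferase complexes 5 rose and 11 fell, beside 39.9% of all tested genes called higher and 38.1% lower. TRRAP, the large scaffold of SAGA and TIP60, fell from 19.0 to 9.55 FPKM, and the nuclear receptor coactivator NCOA2 from 9.35 to 4.14 FPKM. EPC1, a TIP60 complex subunit, rose from 3.03 to 11.7 FPKM (1.65, adjusted p = 1.3e-10, limma). Of 18 bromodomain readers of acetylated lysine 5 rose and 9 fell, among them ATAD2 (35.6 and 15.6 FPKM) and BAZ1B (49.5 and 31.0 FPKM), both lower.

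The SWI/SNF remodellers, which slide nucleosomes and carry bromodomains, had 7 of 19 tested subunits higher and 10 lower. Their alternative ATPases moved in opposite directions, and the fall of SMARCA2 was the largest on the log2 scale of any gene named from the partner lists. SMARCA2 (BRM) averaged 8.58 ± 0.668 FPKM in the parental and 0.207 ± 0.088 FPKM in the resistant cells (-2.99, adjusted p = 7.2e-12, limma), while SMARCA4 (BRG1) rose from 39.7 ± 0.874 to 82.8 ± 2.09 FPKM (1.04, adjusted p = 4.4e-09, limma). SMARCD3 fell from 7.05 to 2.98 FPKM. Over all 14 partner lists, 75 of 219 tested genes rose and 88 fell, with a median log2 change of -0.05. Of all tested genes, 39.9% were called higher and 38.1% lower.

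Pairs of related members were then compared by their ratio within each library, given as a plain FPKM ratio and tested as the difference in log2(FPKM + 1). Of 14 pairs, 11 had ratios that were separated between the groups, each with the smallest p that an exact permutation test of 3 against 3 allows (0.1, two-sided, 0.127 after Benjamini-Hochberg adjustment over the 14 pairs). No pair can pass 0.05 in this design. The largest shifts in log2 ratio were those of HDAC1 over HDAC2 (-1.60 ± 0.24, SE), DNMT3A over DNMT3B (1.31 ± 0.06) and KAT2A over KAT2B (-1.25 ± 0.04).

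The ratio of HDAC1 to HDAC2 was 3.22, 2.30 and 3.92 in the parental and 0.902, 1.13 and 0.948 in the resistant libraries. The paralogues were thus about equal in the resistant cells, while HDAC1 was the higher in every parental library. The ratio of SUV39H1 to SUV39H2 went from 1.73 ± 0.241 to 0.829 ± 0.0689 and that of TET2 to TET3 from 0.458 to 1.05. For KDM1A over KDM1B it went from 10.3 to 5.33, and for KAT2A over KAT2B from 11.01 ± 0.638 to 3.54 ± 0.108. The ratio of EZH1 to EZH2 moved from 0.167 to 0.234, less than those before. The 3 pairs whose ratios overlapped were KDM2A over KDM2B (exact p = 0.3), KDM5A over KDM5B (exact p = 0.5) and HDAC4 over HDAC5 (exact p = 0.9).

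**Figure D3:**
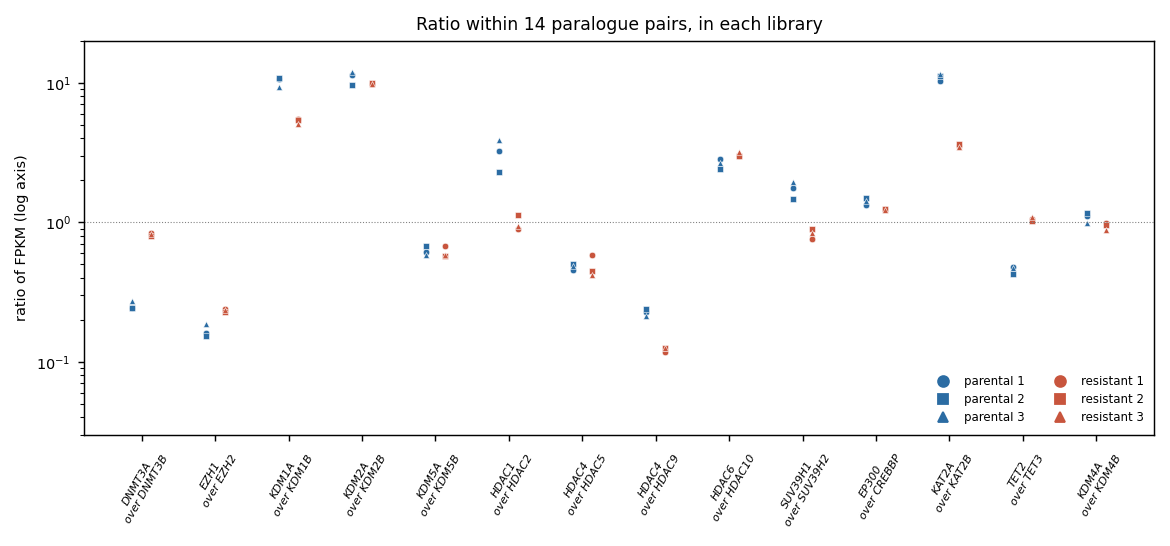
Ratio of FPKM (log axis) within 14 pairs of related members in each library, parental in blue and resistant in red, with a dotted line at equal levels. The ratio of HDAC1 to HDAC2 and that of SUV39H1 to SUV39H2 lie at or above 1.47 in the parental libraries and at or under 1.13 in the resistant ones, and the 6 points of HDAC4 over HDAC5 overlap.

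The files of the single libraries also give a mean coverage per gene. The coverage was divided by the estimated mapped gigabases (14.7, 10.8 and 11.1 in the parental and 10.6, 9.72 and 11.5 in the resistant libraries), and this scale was added after the data were seen. HDAC2 was far steadier on it: 5.47, 5.75 and 5.25 in the parental and 7.70, 7.69 and 7.69 in the resistant libraries, with a ratio of 1.40 and a log2 change of 0.47 (adjusted p = 1.3e-06, limma). Its coefficient of variation over the parental libraries was 30.2% in FPKM, the highest of any member. HDAC8 no longer overlapped, with 0.324, 0.294 and 0.278 against 0.405, 0.426 and 0.350 (adjusted p = 0.0004, limma), and HDAC11 was called, with 2.46, 2.18 and 2.42 against 2.54, 2.73 and 3.03 (adjusted p = 0.013, limma).

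HDAC1 gave the same ratio on both scales, 0.487 on coverage and 0.492 in FPKM. KAT2B had a ratio of 2.59 on coverage and HDAC9 of 2.03, with HDAC9 at a coverage of only 0.1098 to 0.1295 in the parental and 0.238 to 0.243 in the resistant libraries. Over the members, 22 were called higher on the coverage scale and 20 in FPKM. Over all 12107 tested genes the numbers were 5014 and 4833, so calls rose across the table as well. Members with a coefficient of variation over 10% in the parental libraries numbered 5 on coverage and 10 in FPKM. In the resistant libraries they numbered 6 on either scale, with a median of 4.95% on coverage and 4.67% in FPKM.

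Some members overlap other expressed genes, and reads of the shared stretch cannot be told apart where the use of strand is not stated. Among called members, HDAC7 overlaps SLC48A1 (2.61 and 5.25 FPKM in the parental and resistant cells), SIRT2 overlaps NFKBIB (9.02 and 11.6 FPKM) and KDM5A overlaps CCDC77 (4.03 and 7.62 FPKM). Each of these overlaps is a short stretch at the ends of the genes. The shared stretches are 12:48176505-48176536 for HDAC7, 19:39390340-39390502 for SIRT2 and 12:498439-498620 for KDM5A. SUV39H2, also called, shares a longer stretch (10:14939358-14946314) with DCLRE1C, at 3.825 FPKM in the parental and 4.505 FPKM in the resistant cells. The part of that overlap in the change of SUV39H2 was not tested. HDAC2 overlaps RP3-399L15.3 (0.0379 and 1.24 FPKM). DNMT1 overlaps S1PR2 on the same strand (0.615 and 2.61 FPKM), far under its own level. HDAC10, which was not called, overlaps MAPK12 on the same strand (17.4 and 23.2 FPKM). That shared stretch (22:50683879-50689834) covers most of HDAC10 (22:50683612-50689834), which averaged only 3.74 and 3.89 FPKM. How far MAPK12 reads enter the level of HDAC10, and its ratio to HDAC6, was not tested.

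**Figure D4:**
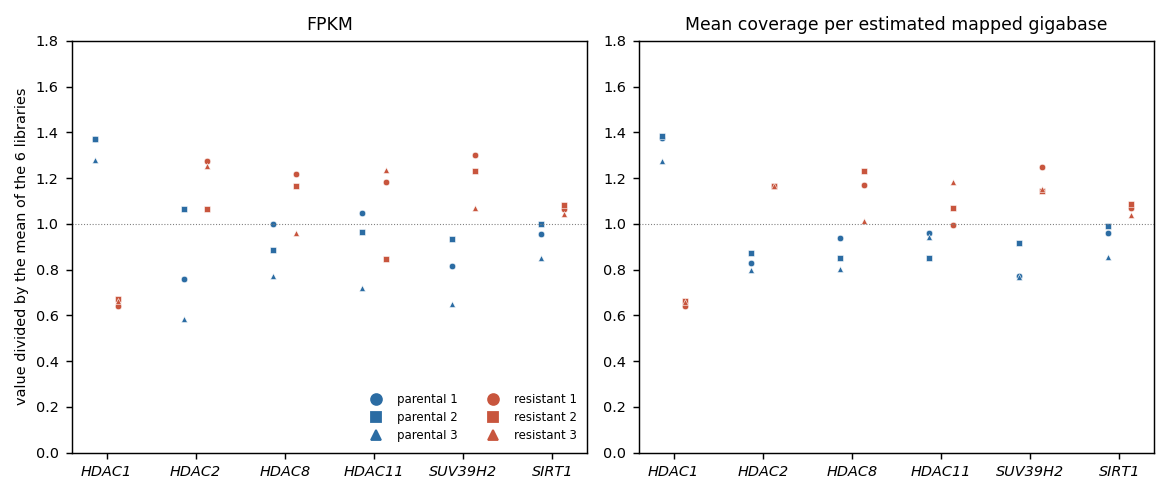
FPKM (left) and coverage per estimated mapped gigabase (right) of 6 members in each library, each divided by the gene's mean over the 6 libraries, parental in blue and resistant in red. HDAC2 is scattered in FPKM and tightly grouped on coverage, HDAC8 and HDAC11 separate on coverage alone, and HDAC1 looks alike in both panels.

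The position of the members on the chromosomes was set beside their changes. For each member, the median log2 change of the tested genes with midpoints within 1 Mb was taken. DNMT1 lay among genes that rose: of 48 neighbours on chromosome 19, 43 were called higher and 1 lower, with a median of 0.80 against 0.81 for DNMT1 itself. The median was still 0.70 over 215 genes within 5 Mb. Among those neighbours within 1 Mb were CARM1 (19:10982189-11033453) and SMARCA4 (19:11071598-11176071), which both rose.

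Other members also moved with their surroundings. KDM1B (0.62) had 8 of 9 neighbours higher with a median of 0.65, and SUZ12 (-0.55) had 11 of 14 lower with a median of -0.55. The 3 neighbours of KDM4C were all lower, with a median of -0.82. EZH2 (-0.28) lay among 12 genes with a median of -0.52, and the median over the 568 tested genes of chromosome 7 was -0.55. On the same chromosome HDAC9 rose, with 1 tested neighbour at -0.42. SUV39H2 (0.53) had 8 of 10 neighbours higher, with a median of 0.43.

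HDAC1, DNMT3B, TET2 and SIRT2 stood apart from their surroundings. The 33 neighbours of HDAC1 had a median of 0.01, with 13 higher and 12 lower. The 33 neighbours of SIRT2 had a median of -0.25, with 18 lower and 8 higher, while SIRT2 rose. DNMT3B lay among 18 genes with a median of 0.05 and TET2 among 4 with a median of 0.01. HDAC3 fell where 49 neighbours had a median of 0.30.

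Across the 41 members with at least 3 neighbours, the change of a member and the median of its neighbours correlated with a Pearson r of 0.416 and a Spearman rho of 0.4, and 19 of 27 called members had the sign of their neighbours (70.4%). Across 11557 tested genes the same values were 0.352, 0.407 and 68.1%, so the members did not stand out. These correlations are across genes, which share libraries and windows and are not replicates.

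**Figure D5:**
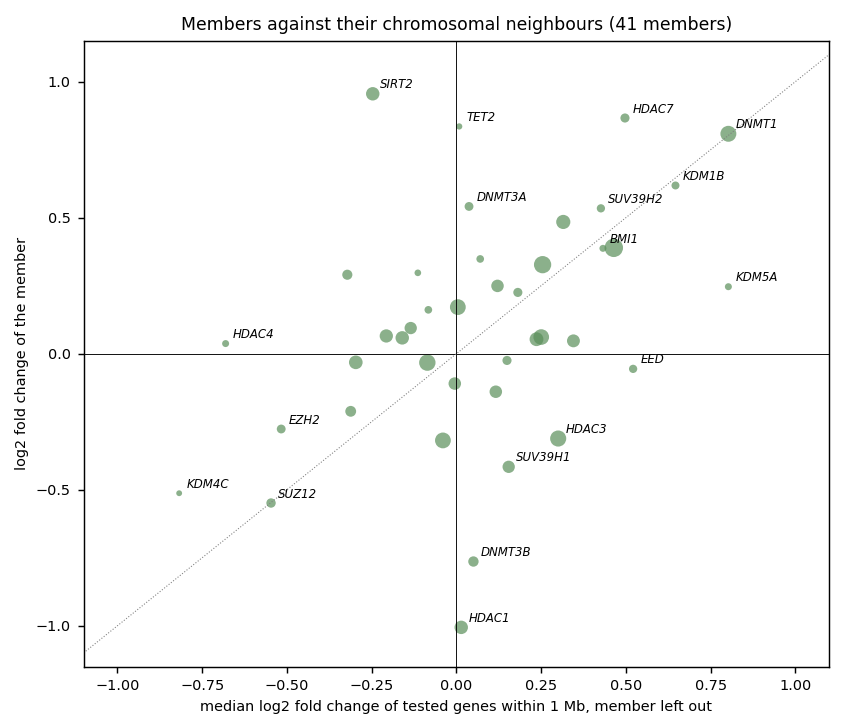
Log2 change of each of 41 members (vertical axis) against the median log2 change of the tested genes within 1 Mb of it (horizontal axis), resistant minus parental, with point area growing with the number of neighbours and a dotted line of equality. DNMT1, KDM1B and SUZ12 lie near the line, while HDAC1 and DNMT3B lie far under it and SIRT2 and TET2 far above.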

How the data were processed

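Total RNA of 6 samples of the established line H1975 and its derivative was sequenced. The values the authors deposited are FPKM, in a series table of 20356 gene IDs and in library files of 57905 IDs. The library files also hold TPM and a mean coverage signal, both deposited by the authors, per the file headers. GRCh37 is named, and DESeq without a version or role, in the submitters' processing notes. Not given in the sources used here are the aligner, the quantifier, the annotation release and the use of strand. No read counts were used, so the depth in reads is unknown, and no counting interval is given. The highest shared ratio of coverage to FPKM in a library was taken as its mapped gigabases, from 9.72 to 14.7.

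Groups came from the sample titles, and each column of the table was mapped to a library. Using limma 3.58.1 in R 4.3.3, log2(FPKM + 1) was fitted with group as the term, with trend and robust moderation, for the 12107 genes with a mean of 1 FPKM or more in a group, two-sided. Ratios of paralogue pairs were tested by exact permutation with scipy 1.17.1. The fit was tested on simulated data.

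The members and the lists of partners and markers were chosen with earlier results of these data known. All members may be named. Of each partner list, the 3 genes with the smallest adjusted p among those called with at least 5 FPKM in the higher group are named. Some genes that this rule names are not reported here. Of 233 partner genes listed, 230 were found. Alternatives covered the pseudocount, the limit on low values, TPM, scaling, moderation, the replicate number, each library left out, and coverage. The sequences are from RefSeq (GRCh38.p14), where 43 of 45 members matched by symbol. HDAC5 and DOT1L did not match.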

Additional observations from a re-analysis of the deposited data

How the results depend on the processing

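Over all alternatives, 17 to 22 members were called higher and 9 to 10 lower (20 and 9 in the reported fit). Of 660 recomputed changes of single members, 612 kept their direction and their side of the threshold, 18 lost the call, 14 gained it and 16 changed sign. The cause was not tested. Called higher by at least 1 on the log2 scale were 3 members with a pseudocount of 0.1 and 3 with TPM, in place of 0. Called lower by that much were 0 with TPM and 0 with quantile normalization, in place of 1 (HDAC1, at -0.98 and -0.94), and leaving out 1 library gave 0 to 1 in either direction. The number of TET genes higher was 2 with no limit on low values. The number of Polycomb genes higher was 1 with quantile normalization and 1 to 2 with a library left out. Class I deacetylases called higher numbered 0 with no limit on low values, 2 with median-of-ratios scaling, 2 without trend or robust moderation, 2 on the coverage scale and 0 to 2 with a library left out. The class IV enzyme was called higher (1) on the coverage scale, and 0 to 1 with a library left out. Among partner lists, PRC2 accessory subunits had 2 lower with quantile normalization, 2 on the coverage scale and 1 to 2 with a library left out, and arginine methyltransferases had 5 higher with quantile normalization. With a library left out, DNA methylation partners had 3 to 5 higher and the heterochromatin list 0 to 1 higher.

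The members whose sign changed were all uncalled. With quantile normalization TET3 was at -0.018, HDAC4 at -0.052 and HDAC10 at -0.046. With TPM, KDM2A was at 0.001 and SETD2 at 0.008. On the coverage scale HDAC10 was at -0.066 and CREBBP at -0.039. With 1 library left out, KDM4B ranged from -0.03 to 0.122, HDAC4 from -0.03 to 0.086, HDAC5 from -0.031 to 0.199, HDAC10 from -0.019 to 0.089, SIRT3 from -0.104 to 0.005 and SETD2 from -0.078 to 0.021. The log2 ratio of KDM5A over KDM5B was 0.021 on the coverage scale and -0.111 to 0.011 with a library left out, and that of HDAC4 over HDAC5 was 0.017 and -0.146 to 0.062. A window of 5 Mb moved the median of the neighbouring genes by over 0.1 for 24 members.

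Same-numbered libraries were not shown to pair: the correlations of their deviations from the group means were -0.14, 0.08 and 0.1. With the replicate number as a block, 19 members were called higher and 9 lower. Depth in reads is unknown, so genes near 1 FPKM, such as TET2, DNMT3A and KAT2B, have no counting error beside the spread of 3 libraries.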
